A study of Homo sapiens with 6 samples.

Results

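The tetraspanin CD82 and 6 other tetraspanins of blood cells, CD9, CD37, CD53, CD63, CD81 and CD151, were followed through 6 RNA sequencing libraries of a leukemia cell line. The 7 genes were picked by symbol, with the difference of CD82 between the groups already known, and they were found as 7 of the 58233 gene identifiers in the count table. All 7 passed the filter on low counts, which kept 13028 genes in all. Because the choice rests on the contrast described here, their group differences are given as sizes with a standard error (SE) and without a p-value.

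The cells were OCI-AML2, an established line from a human acute myeloid leukemia, grown in medium with serum and given no drug according to the labels. In 3 libraries, labelled IKZF1-ko, the gene for the transcription factor Ikaros had been targeted by CRISPR, and 3 libraries, labelled NT control, came from cells with a non-targeting control. By the design text each group had 3 lines, but by the protocol for RNA isolation parental and knockout cells were each used in triplicate, and no label tells whether replicates were separate clones or cultures. P-values below therefore cover only the variation among these 6 libraries, part or all of which may be technical.

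Tetraspanins are small proteins that cross the plasma membrane several times and gather integrins, immunoglobulin-family proteins, enzymes and each other into membrane domains. They carry no enzyme activity of their own and act through these partners, in adhesion, migration, signalling and the sorting of cargo into endosomes and extracellular vesicles. CD37 and CD53 are made almost only by leukocytes, CD63 sits mainly in late endosomes and lysosomes, and CD82 is known in blood stem cells and leukemia for its hold on integrin-mediated adhesion.

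The libraries held 11300519 to 18214328 counts. On the first principal component, with 67.6% of the variance, NT control 2 and IKZF1-ko 1 lay together at 39.5 and 50.1, apart from the other 4 libraries at -29.1 to -16.3. Results are therefore given from 3 fits: on group alone, with a term for this library set, and on the 4 other libraries only, where both IKZF1-ko libraries were deeper than both NT control libraries. The sets were defined from the same counts, so p-values from the fit with the set term take them as known. IKZF1 mRNA itself was higher, not lower, in the libraries labelled IKZF1-ko: 331, 292 and 334 CPM (read counts scaled by library size) in NT control 1, 2 and 3, and 421, 426 and 436 CPM in IKZF1-ko 1, 2 and 3. Its log2 fold change was 0.43 (SE 0.047, adjusted p = 1.23e-05 in edgeR) with the set term. It was 0.37 (SE 0.041, adjusted p = 1.07e-07 in edgeR) in the 4 libraries and 0.42 (SE 0.099, adjusted p = 0.61 in edgeR) on group alone. Read counts per gene show neither the edit nor the protein, so directions below follow the labels. Of 8 myeloid markers, 6 had counts in every library, summing to 1154 to 1231 CPM in NT control and 1115 to 1188 CPM in IKZF1-ko, and CD34 was at 0. Of 5 B cell markers, 4 had counts in every library. PAX5 was the highest of them, with 11.2 to 13.2 CPM in NT control and 11.4 to 15.1 CPM in IKZF1-ko. CD79A and CD79B reached at most 0.71 and 2.13 CPM in any library, and MS4A1 was at 0. The part of PAX5 in the results below was not tested. The T and NK list had counts in every library for 1 of 5 genes (7.44 to 10.03 CPM and 6.08 to 9.87 CPM, CD3E, CD3G and CD2 at 0), the platelet list for 2 of 5 (up to 2.48 CPM, PF4 at 0), and the epithelial list for 0 of 5 (up to 0.473 CPM, with EPCAM, KRT18, KRT19 and CDH1 at 0).

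CD82 (ENSG00000085117) lies on the forward strand of chromosome 11 at 44564427 to 44620363 in GRCh38. It shares 280 bases of exon with AC010768.1 on the opposite strand, which had 0 counts in all 6 libraries. RefSeq start-site windows, 300 bases around an annotated start, were held for 4 of the 7 genes: CD82 (1 window), CD53 (2), CD9 (4) and CD63 (8). They were searched on both strands for TGGGAA, the core letters bound by Ikaros family proteins, because Ikaros is the targeted factor. The motif was in 1 window each of CD82, CD53 and CD9 and in 0 of the 8 windows of CD63. It was in 24.0% of all 35116 windows of the table, so a match is frequent by itself and is a description, not a site. The stretches of the CD82 and CD53 windows upstream of the exon at the RefSeq start are shown because CD82 had the largest group difference of the 7 genes and CD53, which also holds a match, had the smallest with the set term. Capitals mark the match, and both stretches lie inside the gene as annotated downstream of its outermost annotated start, in no annotated exon.

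CD82, GRCh38.p14, chr11:44565413-44565590, forward strand: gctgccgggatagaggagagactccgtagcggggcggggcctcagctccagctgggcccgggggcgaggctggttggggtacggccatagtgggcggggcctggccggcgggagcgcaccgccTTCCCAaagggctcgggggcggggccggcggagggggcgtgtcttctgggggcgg
CD53, GRCh38.p14, chr1:110872898-110873147, forward strand: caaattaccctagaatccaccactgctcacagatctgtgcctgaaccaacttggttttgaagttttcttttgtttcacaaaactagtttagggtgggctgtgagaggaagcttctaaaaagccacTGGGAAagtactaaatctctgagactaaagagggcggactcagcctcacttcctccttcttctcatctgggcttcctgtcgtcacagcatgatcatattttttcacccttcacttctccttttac

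The CD82 stretch has 77.0% G and C over 178 bases and holds 4 GC boxes (GGGCGG on either strand, present in 45.0% of all windows). Its match, TTCCCA on the printed strand, ends 122 bases before the RefSeq start. The CD53 stretch has 44.0% G and C over 250 bases with 1 GC box, and its match ends 120 bases before the start. The pair thus differ in base composition and in GC boxes while the match stands at nearly the same distance. Over whole windows, CD82 had 76.7% G and C with 4 GC boxes. The windows of CD9 ran from 45.0% with 0 boxes, the window with its match, to 75.7% with 6 boxes. Those of CD63 ran from 56.0% with 0 boxes to 78.3% with 3 boxes. High G and C content with several GC boxes was thus not limited to CD82. Whether base composition or GC boxes go with the group difference was not tested.

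CD82 mRNA was 27.7, 31.2 and 26.8 CPM in NT control 1, 2 and 3, from 327, 457 and 306 reads. It was 14.9, 15.3 and 15.2 CPM in IKZF1-ko 1, 2 and 3, from 223, 281 and 257 reads. Every IKZF1-ko library lay below every NT control library, and the lowest control exceeded the highest IKZF1-ko library by far more than either group's spread. The means were 28.6 ± 2.32 CPM (SD, n = 3) and 15.1 ± 0.225 CPM (SD, n = 3), a level 1.89-fold lower in IKZF1-ko on group alone. The log2 fold change was -0.92 (SE 0.12) on group alone, -0.91 (SE 0.088) with the set term and -0.84 (SE 0.10) in the 4 libraries. Between the pair of libraries that stood apart, IKZF1-ko 1 was 1.06 log2 units below NT control 2 (3.91 against 4.97), so the difference had the same sign in both library sets. The SD of the IKZF1-ko libraries, 1.49% of their mean, was smaller than the 5.97% to 6.70% that counting error alone gives each of them, so their closeness is no measure of the spread between cultures. Counted from the lowest fold change, CD82 ranked 47 of 13028 genes on group alone, 51 with the set term and 91 of 12951 in the 4 libraries. Among the 10261 genes that averaged 5 CPM or more it ranked 6, 6 and 7. In bulk RNA, fewer cells that make a transcript and less of it per cell cannot be told apart, here and for each gene below.

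**Figure D1:**
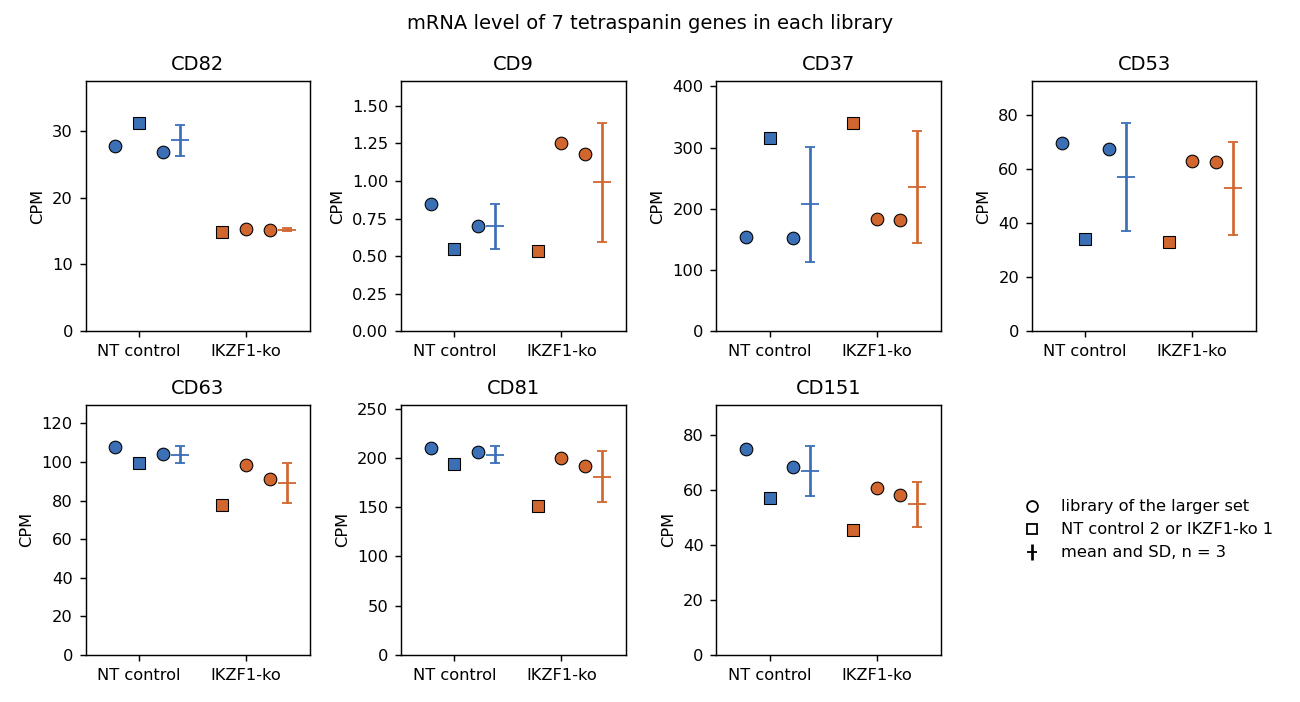
Each point is 1 library's level in CPM (vertical axis, from 0, scaled per gene) for NT control and IKZF1-ko, with the mean and SD of 3 libraries beside it. Squares are NT control 2 and IKZF1-ko 1, which lie with their group for CD82 (31.2 and 14.9 CPM) but with each other for CD37 (315 and 341 CPM) and CD53 (34.1 and 33.1 CPM).

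The leukocyte-restricted pair, CD37 and CD53, showed another pattern: they moved in opposite directions between the library sets. CD37 (ENSG00000104894, chromosome 19, 49335171 to 49343335) is a lymphoid and myeloid tetraspanin and a target of therapeutic antibodies. Its level was 154, 315 and 152 CPM in NT control 1, 2 and 3 and 341, 183 and 182 CPM in IKZF1-ko 1, 2 and 3. NT control 2 and IKZF1-ko 1 were the high libraries, 2.06 and 1.86 times the mean of the other libraries of their group, and the groups overlapped. CD53 (ENSG00000143119, chromosome 1, 110871188 to 110899928), a pan-leukocyte tetraspanin that stabilises lymphocyte adhesion receptors, had 69.9, 34.1 and 67.6 CPM in NT control and 33.1, 63.2 and 62.8 CPM in IKZF1-ko. Here the same libraries were low, at 0.496 and 0.525 times the others, and the groups overlapped too. The ratio of CD37 to CD53 reads therefore was 9.24 and 10.3 in NT control 2 and IKZF1-ko 1 and 2.20 to 2.91 in the other 4 libraries.

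Against that difference, the group difference of CD37 and CD53 was small. The log2 fold change of CD37 was 0.18 (SE 0.37) on group alone, 0.20 (SE 0.048) with the set term and 0.25 (SE 0.047) in the 4 libraries. That of CD53 was -0.11 (SE 0.35), -0.10 (SE 0.060) and -0.13 (SE 0.062). The smaller SE of CD37 and CD53 in the last 2 fits shows how much of the spread within a group lay between the sets. On group alone neither direction is stable: CD37 gave -0.18 without IKZF1-ko replicate 1 and 0.62 without NT control replicate 2, and CD53 gave 0.14 and -0.37. With 1 surrogate variable in place of the set term, CD37 was at 0.07 and CD53 changed sign, to 0.03. CD37 shares exon bases on the opposite strand with TEAD2, at most 1.69 CPM in any library, and CD53 with no gene.

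CD81 (ENSG00000110651, chromosome 11, 2376177 to 2397419) is a tetraspanin made by many cell types and known as a receptor in viral entry. It was at 209.7, 194 and 206 CPM in NT control 1, 2 and 3 and at 152, 199.7 and 192 CPM in IKZF1-ko 1, 2 and 3. IKZF1-ko 1 was the lowest library, and IKZF1-ko 2 lay above NT control 2, so the groups overlapped. The log2 fold change of CD81 was -0.17 (SE 0.13) on group alone, -0.17 (SE 0.055) with the set term and -0.09 (SE 0.045) in the 4 libraries. CD9 (ENSG00000010278, chromosome 12, 6199715 to 6238271), a platelet and vesicle tetraspanin close to CD81 in sequence, was close to the limit of detection. It had 10, 8 and 8 reads in NT control and 8, 23 and 20 reads in IKZF1-ko, which is 0.848, 0.546 and 0.700 CPM against 0.535, 1.26 and 1.18 CPM. The exact Poisson 95% interval of 8 reads is 3.5 to 15.8 and that of 23 reads is 14.6 to 34.5 (counting error only). These intervals are for single libraries and are not scaled for depth, so they do not test the group difference. The log2 fold change of CD9 was 0.52 (SE 0.43), 0.48 (SE 0.37) and 0.65 (SE 0.44) in the 3 fits, each with a wide SE.

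CD63 (ENSG00000135404, reverse strand of chromosome 12, 55725323 to 55729707) is the tetraspanin of late endosomes, myeloid granules and exosomes. Its level was 108, 99.4 and 104 CPM in NT control 1, 2 and 3 and 77.8, 98.4 and 90.9 CPM in IKZF1-ko 1, 2 and 3. The groups did not overlap, but IKZF1-ko 2 and NT control 2 differed by less than the SD of either group. The log2 fold change of CD63 was -0.22 (SE 0.12), -0.23 (SE 0.057) and -0.16 (SE 0.056). CD63 shares 237 bases of exon with AC009779.2 on the opposite strand, which was at most 3.44 CPM in any library. CD151 (ENSG00000177697, chromosome 11, 832843 to 839831) binds laminin-binding integrins. It had 75.0, 57.1 and 68.2 CPM in NT control and 45.5, 60.8 and 58.3 CPM in IKZF1-ko, with NT control 2 below the highest IKZF1-ko library. Its log2 fold change was -0.28 (SE 0.16), -0.29 (SE 0.060) and -0.27 (SE 0.064). CD151 shares 257 bases of exon with POLR2L on the opposite strand, which was at 33.6, 17.1 and 33.3 CPM and at 10.6, 25.9 and 24.4 CPM. Whether reads were counted by strand is not given in the sources used here, and reads of CD151 and POLR2L in those bases cannot be told apart.

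Among the 7 genes CD82 had the largest difference in size in each fit; CD9 came next, with a wide SE. The other 6 had log2 fold changes between -0.29 and 0.48 with the set term, and the median of the 7 was -0.17, against 0.00 over all genes tested. On group alone edgeR called 0 of the 7 at an adjusted p under 0.05, where it called 0% of all genes; at an unadjusted p under 0.05 it marked 1, where it marked 3.50% of all genes. On group alone DESeq2 called 1 of the 7, where it called 0.545% of all genes, and limma-voom called 0, where it called 0.00768%. With the set term edgeR called 5 of the 7, where it called 13.5% of all genes: 4 lower (6.62% of all genes) and 1 higher (6.93%). In the 4 libraries it called 4 of the 7, where it called 14.7% of all genes: 3 lower (7.10%) and 1 higher (7.64%). The genes were chosen from this contrast, so nothing is read from these counts. The count of 5 with the set term was 1 without NT control replicate 1, 2 without IKZF1-ko replicate 3, 3 without NT control replicate 3 and 3 with the surrogate variable, and the count of 4 in the 4 libraries was 2 without NT control replicate 1. Leaving out 1 of the 4 libraries leaves a single library in a group, which is then assumed to vary like the other group's pair. All IKZF1-ko libraries lay below all controls for 2 of the 7, CD82 and CD63, where 4.07% of all genes did. In the 4 libraries the groups did not overlap for any of the 7: 5 were lower in IKZF1-ko, as were 27.0% of all genes without overlap, and 2 were higher, as were 27.7%. For an interaction of library set and group edgeR called 0 of the 7 (1 at an unadjusted p under 0.05, CD81), where it called 2.26% of all genes; the spread of that fit comes from the 4 libraries alone.

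**Figure D2:**
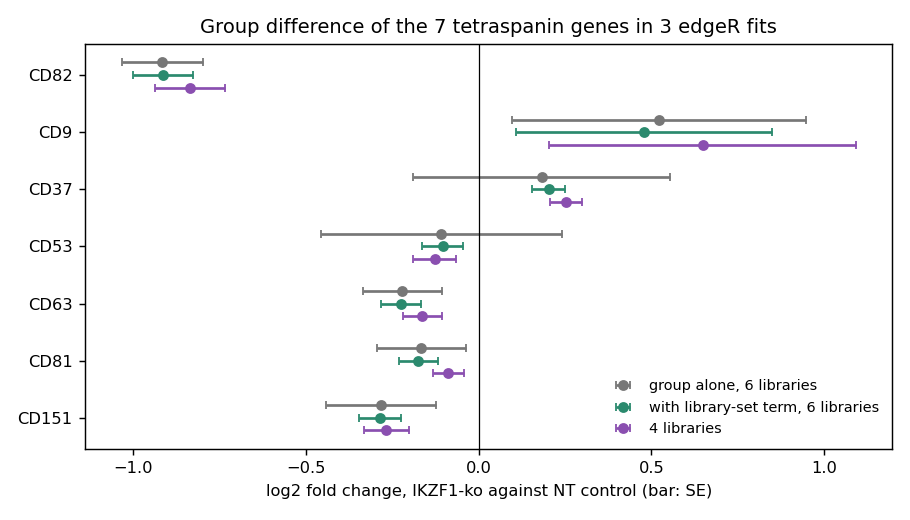
Points are the log2 fold change of IKZF1-ko against NT control (horizontal axis) of each of the 7 genes in 3 edgeR fits, and bars are 1 SE. CD82 lies between -0.92 and -0.84 in all 3, and the bars of CD37 and CD53 shrink from 0.37 and 0.35 to 0.048 and 0.060 once the set term is added.

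CD82 and CD53 differed in opposite ways by set and by group: CD82 by group and little by set, CD53 by set and little by group. The difference between sets, as log2 CPM of the library that stood apart minus the mean of the other 2 of its group, was 0.19 for CD82 within NT control and -0.03 within IKZF1-ko. The mean of these signed values, which partly cancel, was 0.08 for CD82, and 11.9% of the tested genes had a mean smaller in size. For CD37 the set differences were 1.04 and 0.90, with a mean larger in size than in 90.6% of the tested genes. For CD53 they were -1.01 and -0.93, with a mean also larger in size than in 90.6%. The set differences of CD63 (-0.09 and -0.28), CD81 (-0.10 and -0.37) and CD151 (-0.32 and -0.39) were negative in both groups. CD9 had -0.41 and -1.01, from few reads. Set differences are descriptions, since the sets were drawn from the counts.

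**Figure D3:**
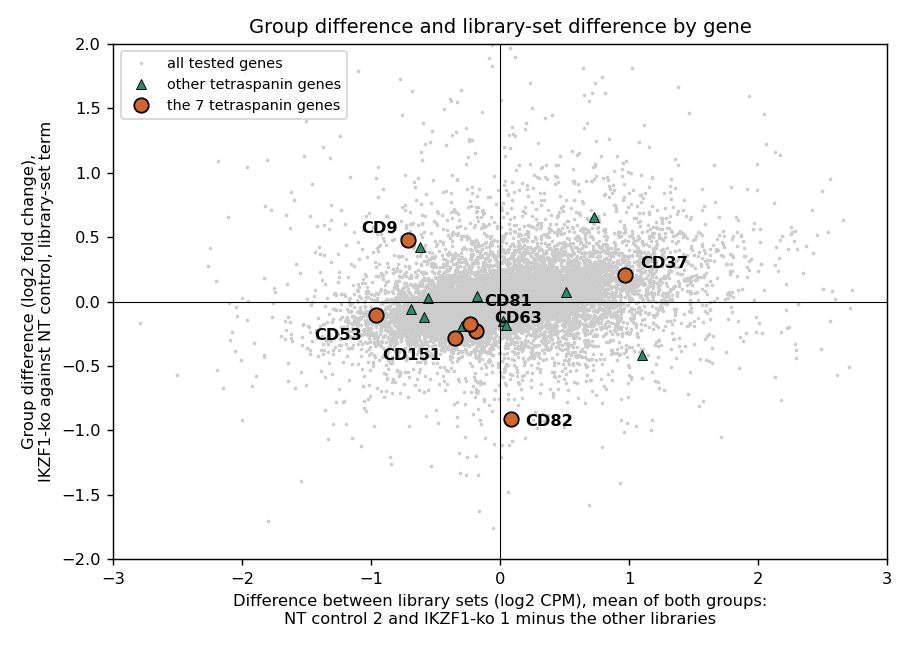
Each point is a gene, with the mean set difference in log2 CPM on the horizontal axis and the group difference as log2 fold change, from the fit with the set term, on the vertical axis (24 tested genes lie outside the axes). CD82 (0.08 and -0.91) lies near the vertical line and low, and CD37 (0.97 and 0.20) and CD53 (-0.97 and -0.10) lie far to the right and left near the horizontal line.

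Levels of different genes were compared as CPM per kilobase of exon. In NT control the order was CD37 (49.8 ± 22.5), CD63 (39.4 ± 1.62), CD81 (27.5 ± 1.15), CD53 (26.6 ± 9.31), CD151 (17.0 ± 2.29), CD82 (7.05 ± 0.573) and CD9 (0.168 ± 0.0363), each in CPM per kilobase (SD, n = 3). The ranges over the 3 libraries overlapped for CD37 and CD63, for CD81 and CD53, and for CD53 and CD151, so these neighbours in the order are not told apart by their spread. CD63 and CD81, CD151 and CD82, and CD82 and CD9 did not overlap. With the longest transcript in place of all exons, CD63 (84.2 CPM per kilobase) came before CD37 (65.3) and the rest of the order held. In IKZF1-ko the order was the same except that CD53 (24.6 ± 8.02) and CD81 (24.5 ± 3.49 CPM per kilobase) traded places, and CD82 stood at 3.74 ± 0.0555.

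As a share of the summed level per length of the 7 genes, CD82 was 4.15%, 4.33% and 4.14% in NT control 1, 2 and 3 and 2.26%, 2.41% and 2.46% in IKZF1-ko 1, 2 and 3. The CD82 share did not overlap between the groups, which repeats the CD82 difference already known when the genes were picked. The share of CD37 was 22.4%, 42.6% and 23.0% in NT control and 50.3%, 27.9% and 28.8% in IKZF1-ko, which follows the sets.

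**Figure D4:**
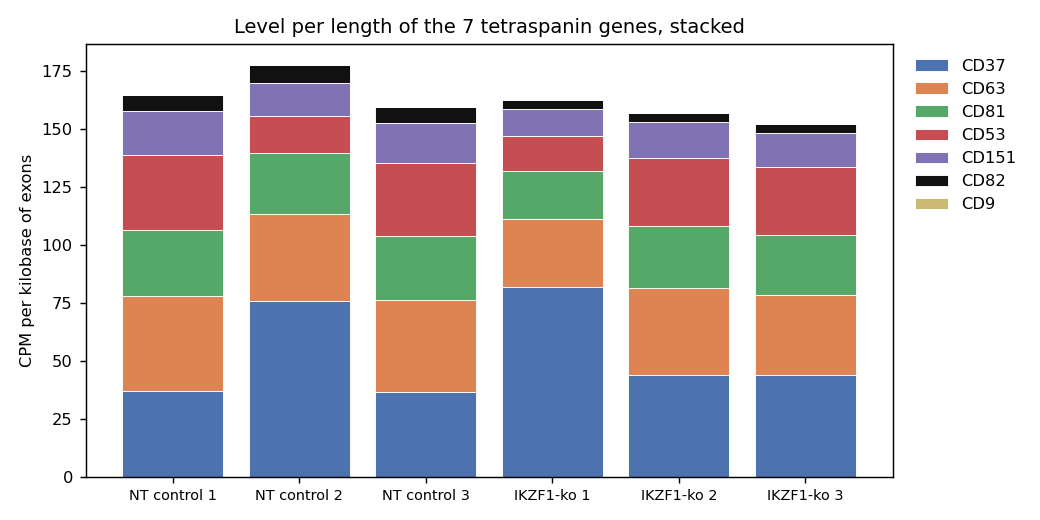
Stacked bars give the level of the 7 genes in each library in CPM per kilobase of exon, from 0. The CD82 band is 6.60 to 7.69 in the NT control bars and 3.68 to 3.78 in the IKZF1-ko bars, and the CD37 band is widest in NT control 2 (75.8) and IKZF1-ko 1 (81.9).

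Among the 7 genes, log2 CPM over the 6 libraries followed that of CD82 most closely for CD63 (Pearson r = 0.72) and hardly for CD37 (r = -0.13) or CD53 (r = 0.02). CD63, CD81 and CD151 went together with r between 0.93 and 0.96, and CD37 and CD53 stood opposite with r = -0.992. These values are descriptions over 6 points that share their libraries, their 2 groups and their 2 sets. Of 10239 genes with a symbol that averaged 5 CPM or more, those most like CD82 were MLC1 (r = 0.994), a membrane protein gene, AP5B1 (r = 0.993), a subunit gene of an endosomal adaptor complex, and GAPT (r = 0.991), an adaptor gene of blood cells. MLC1 was at 248, 251 and 243 CPM in NT control and 164, 168 and 166 CPM in IKZF1-ko, and GAPT at 41.9, 41.4 and 36.9 CPM and 21.3, 20.4 and 20.7 CPM. The most opposite were CYP2S1 (r = -0.998), a cytochrome P450 gene, MARVELD1 (r = -0.998) and RAB13 (r = -0.996), a small GTPase gene. CYP2S1 was at 4.67, 3.69 and 4.99 CPM in NT control and 17.5, 14.5 and 15.1 CPM in IKZF1-ko. In all, 30 genes had r above 0.95 with CD82 and 42 had r below -0.95.

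Of 26 other tetraspanin genes, 11 had no count in any library and 11 passed the filter. With the set term 0 were higher and 1 was lower (adjusted p under 0.05 in edgeR), where 6.62% of all genes were called lower, with a median log2 fold change of -0.06 against 0.00 over all genes. The lower one was TSPAN14, a partner of the ADAM10 protease, at 105, 94.5 and 107 CPM in NT control and 73.2, 94.8 and 102 CPM in IKZF1-ko (a log2 difference of -0.19, SE 0.060, adjusted p = 0.042 in edgeR). The groups overlapped for TSPAN14, and in the 4 libraries it did not pass (-0.11, adjusted p = 0.20 in edgeR). The TSPAN14 call was also lost by DESeq2, with the surrogate variable and on leaving out each library in turn except IKZF1-ko replicate 3. TSPAN32, a tetraspanin of blood cells, had 1.44, 2.73 and 1.14 CPM against 3.41, 2.40 and 2.54 CPM and did not pass either (0.66, SE 0.25, adjusted p = 0.086 in edgeR with the set term). It is named for its size, after its values were seen.

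Of 28 genes for tetraspanin partners, 18 were tested: 4 rose and 5 fell with the set term, 5 rose and 6 fell in the 4 libraries, and 0 were called on group alone (3 at an unadjusted p under 0.05, 0 by DESeq2, 0 by limma-voom). Over all genes the shares called were 13.5% with the set term, 14.7% in the 4 libraries and, at an unadjusted p on group alone, 3.50%. In the 4 libraries the count of 11 partner genes was 7 without NT control replicate 3 and 7 without IKZF1-ko replicate 2. The median log2 fold change of the partners was 0.05 with the set term. Integrins went both ways. ITGA4, the alpha 4 chain with which CD82 is known to act in adhesion to bone marrow stroma, fell from 222, 186 and 234 CPM in NT control to 151, 166 and 172 CPM in IKZF1-ko, without overlap (log2 fold change -0.39, SE 0.050, adjusted p = 6.26e-05 in edgeR with the set term). ITGB2, the leukocyte beta 2 chain, fell from 64.1, 65.9 and 60.0 CPM to 51.7, 48.9 and 50.8 CPM (-0.33, SE 0.060, adjusted p = 0.00136 in edgeR), and it shares exon bases with ITGB2-AS1 on the opposite strand. ITGA5, the alpha 5 chain of the fibronectin receptor, rose with the set term (0.23, SE 0.051, adjusted p = 0.0055 in edgeR), from 171, 222 and 155 CPM to 255, 198 and 189.6 CPM, with groups that overlapped and a call lost without NT control replicate 3.

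CXCR4, the chemokine receptor gene of the partner list, was at 79.8, 132 and 78.6 CPM in NT control and at 114, 56.6 and 57.4 CPM in IKZF1-ko, high in NT control 2 and IKZF1-ko 1 as CD37 was. Within each set CXCR4 was lower in the IKZF1-ko libraries (log2 fold change -0.38, SE 0.059, adjusted p = 4.02e-04 in edgeR with the set term), although over all 6 libraries the groups overlapped. MMP14, a membrane-bound matrix metalloprotease, rose from 56.8, 36.5 and 60.9 CPM to 59.9, 76.2 and 71.5 CPM (0.45, SE 0.074, adjusted p = 5.92e-04 in edgeR with the set term). The groups overlapped for MMP14, with NT control 2 the lowest library, and in the 4 libraries the log2 fold change was 0.33 (SE 0.064). TIMP1, a metalloprotease inhibitor that binds CD63, fell from 15.4, 12.6 and 18.3 CPM to 8.95, 10.3 and 10.8 CPM (-0.62, SE 0.11, adjusted p = 0.00147 in edgeR), without overlap. The other partner genes called with the set term were PI4K2A (-0.46), PRKCA (0.20) and CD44 (0.16).

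Of 26 genes of extracellular vesicles and late endosomes, 22 were tested, and with the set term 2 rose and 2 fell, with a median log2 fold change of 0.01. These 4 of 22 stand beside 13.5% called over all genes. SDC2, a syndecan that takes part in exosome budding, rose from 133, 116 and 134 CPM to 157, 168 and 165 CPM (a log2 difference of 0.36, SE 0.049, adjusted p = 1.11e-04 in edgeR). SDCBP, which encodes syntenin, the adaptor between syndecans, ALIX and CD63, rose by 0.19 (SE 0.049, adjusted p = 0.017 in edgeR with the set term), a call lost with the surrogate variable, without NT control replicate 1 and without IKZF1-ko replicate 3. LAMP1, a lysosomal membrane glycoprotein, fell from 200.4, 141 and 192 CPM to 112, 161 and 161 CPM (-0.30, SE 0.047, adjusted p = 3.78e-04 in edgeR), with groups that overlapped. RAB27A, a GTPase of vesicle docking that shares exon bases with PIGBOS1 on its own strand, fell with the set term (-0.19, SE 0.049, adjusted p = 0.017 in edgeR), a call lost on leaving out NT control replicate 1 or 3 or IKZF1-ko replicate 2 or 3. The count of 4 called vesicle genes was 2 without NT control replicate 1 and 2 without IKZF1-ko replicate 3.

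Of 7 genes for the glycosylation, palmitoylation and turnover of tetraspanins, 6 were tested and 1 fell with the set term, where 6.62% of all genes were called lower. This was RPN2, a subunit of the oligosaccharyl transferase that adds N-glycans to tetraspanins, at 491, 475 and 506 CPM in NT control and 386, 466 and 449 CPM in IKZF1-ko (a log2 difference of -0.18, SE 0.048, adjusted p = 0.017 in edgeR). Every IKZF1-ko library was below every control, and the RPN2 call was lost without NT control replicate 3 and without IKZF1-ko replicate 3. On group alone, edgeR, DESeq2 and limma-voom each called 0 genes of the other tetraspanin, vesicle and maturation lists, with 0, 1 and 0 of them at an unadjusted p under 0.05 in edgeR.

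**Figure D5:**
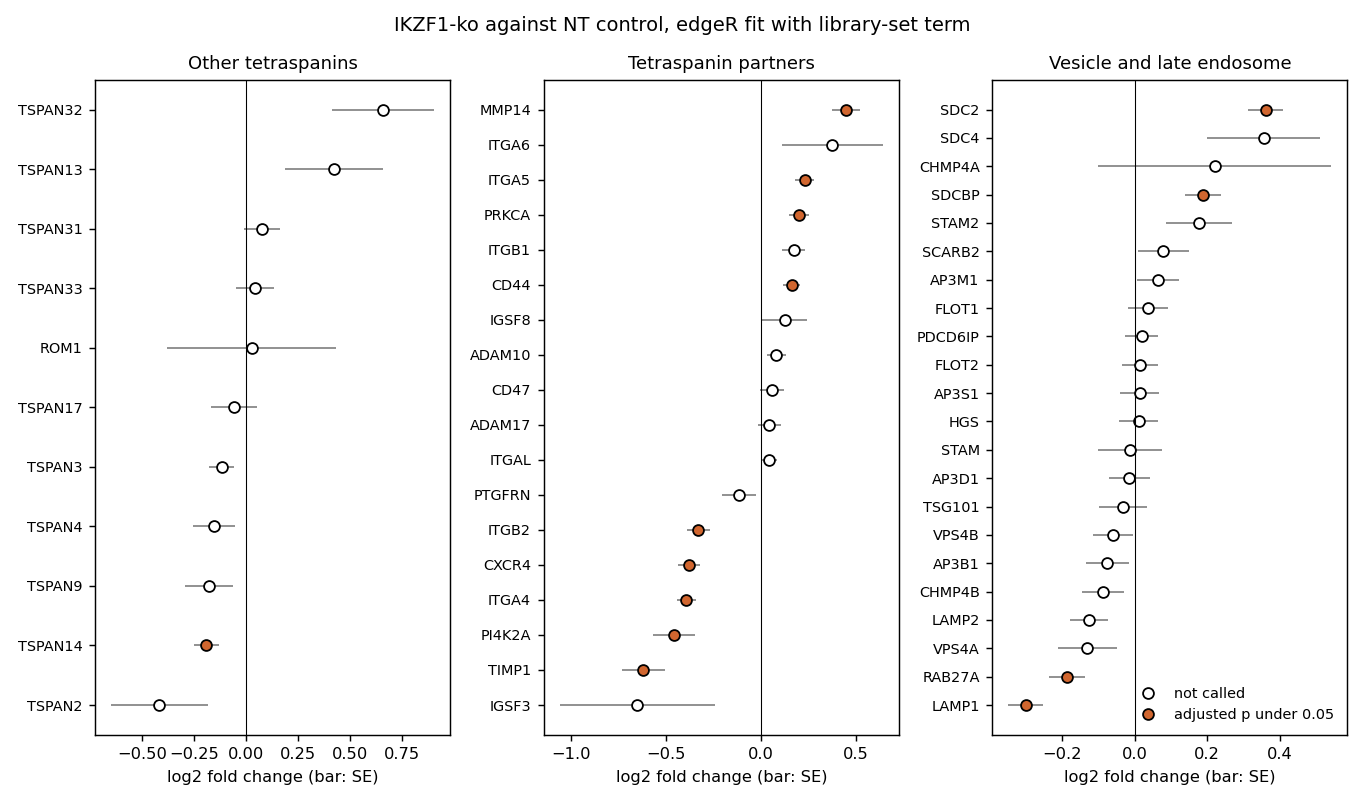
Points are log2 fold changes of IKZF1-ko against NT control (horizontal axis, bars 1 SE) from the edgeR fit with the set term for the tested genes of 3 lists, filled where the adjusted p is under 0.05. Filled points are 1 of 11 other tetraspanins, 9 of 18 partners and 4 of 22 vesicle and late endosome genes, and among the partners they lie on both sides of 0, from -0.62 (TIMP1) to 0.45 (MMP14).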

How the data were processed

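Polyadenylated RNA was sequenced from 6 libraries made with a stranded mRNA kit, per the labels' protocols. The authors deposited 1 table of whole-number read counts per Ensembl gene, used as deposited. The submitters' processing notes name Trimmomatic, STAR and GRCh38 and give no versions. Which tool counted the reads, whether by strand, and with which annotation is not given in the sources used here. Columns were matched to samples by library name, and 0 columns belonged to other samples. Of 58233 identifiers, 57895 were in GENCODE release 29, the source of positions and exon lengths, and 57392 had a symbol.

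The filterByExpr function kept 13028 genes with 99.9% of counts. Log2 CPM was computed with TMM factors and prior count 2. Quasi-likelihood tests of edgeR 4.0.16 in R 4.3.3, two-sided with Benjamini-Hochberg adjustment over all tested genes and a threshold of 0.05, were run with group as the single term, with a library-set term added, and on 4 libraries (12951 genes). The SE is the fold change divided by the root of the F statistic. The alternatives were other scalings and filters, DESeq2 1.42.0, limma-voom (limma 3.58.1), 1 surrogate variable (sva 3.50.0), a replicate block and each library left out.

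The 7 genes, the lists and the library sets were chosen with earlier results of these data known. The look at the interaction and at the neighbours of CD82 was added after the counts had been seen. Genes named are the 7, IKZF1, up to 6 called genes from each of the remaining lists, ranked by adjusted p with the set term, and the 3 most like and 3 most opposite to CD82; TSPAN32, 3 further called partners (PI4K2A, PRKCA, CD44) and genes that share exons were named after their values were seen. Promoter windows are from RefSeq (GRCh38.p14). Tests were also run on simulated counts in which the library sets were taken as known. Such counts cannot check the effect of drawing the sets from the data, or what the replicates stand for. The sums of 2 marker lists are not reported here. Figures were drawn with matplotlib 3.10.9.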

Additional observations from a re-analysis of the deposited data

How the results depend on the processing

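The log2 fold change of CD82 stayed negative under each alternative run, from -0.96 to -0.85 on group alone, from -0.95 to -0.84 with the set term and from -0.86 to -0.81 in the 4 libraries; leaving out 1 library gave the range -0.86 to -0.81 there. The number of genes called on group alone, 0 in edgeR, was 8 with no filter on low counts, 71 by DESeq2 (13 lower, 58 higher) and 1 by limma-voom. The 1765 genes called with the set term were 1159 by DESeq2 and 1047 with the surrogate variable, and 811 to 1943 with 1 library left out, the lowest without IKZF1-ko replicate 3 (811) and without NT control replicate 1 (948). The 1908 genes called in the 4 libraries were 825 by DESeq2 and 1339 to 1501 with 1 library left out, where the spread comes from the pair in the other group and the lone library is assumed to vary like it. DESeq2 in the 4 libraries called 6 partner genes against 11, 3 vesicle genes against 5 and 0 maturation genes against 1. The causes were not tested.

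With the replicate number as a block, 0 genes were called on group alone and CD82 was at -0.91. The deviations from the group means correlated at r = -0.66 for number 1, -0.69 for number 2 and 0.59 for number 3. Between NT control 2 and IKZF1-ko 1, r was 0.82. These values follow the library sets, so they cannot show whether equal numbers pair the samples. CD9 was not tested with a filter of at least 1 CPM. For IKZF1 and the called genes ranked highest by adjusted p in the remaining lists, 442 values under alternatives kept their side of the threshold. Another 25 lost the call and 1 gained it (IKZF1 on group alone by DESeq2, 0.41). On group alone edgeR called 0 genes, so no call could be lost there. Direction was not always kept: on group alone the log2 fold change of RAB27A ranged from -0.431 to 0.039 and that of SDCBP from -0.008 to 0.37. Depth limits CD9, with 8 to 23 reads.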

Other observations

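Within 500 kilobases of CD82 the table holds 16 other genes, of which 4 were tested: ACCS, EXT2, TP53I11 and PRDM11. With the set term edgeR called 1 of these 4, where it called 13.5% of all genes. The called neighbour, EXT2, encodes a glycosyltransferase of heparan sulfate chains and lies on chromosome 11 at 44095549 to 44245429 in GRCh38. EXT2 fell from 94.4, 79.8 and 101 CPM in NT control 1, 2 and 3 to 67.0, 76.2 and 79.0 CPM in IKZF1-ko 1, 2 and 3 (a log2 difference of -0.31, SE 0.054, adjusted p = 0.00106 in edgeR). In the 4 libraries EXT2 was at -0.33 and ACCS rose by 0.31 (adjusted p = 0.017 in edgeR). Both were called there, where edgeR called 14.7% of all genes. The neighbours were looked at after the values of CD82 were known.

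The summed CPM of the 7 tetraspanin genes was 645, 731 and 626 in NT control 1, 2 and 3 and 664, 621 and 603 in IKZF1-ko 1, 2 and 3. The sum overlapped between the groups, with NT control 2 the highest. CD82 reads per 100 CD81 reads were 13.2, 16.1 and 13.0 in NT control and 9.83, 7.68 and 7.91 in IKZF1-ko. This ratio did not overlap between the groups, but it only restates the CD82 difference already known when the genes were picked.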
